A study of Mus musculus with 2 samples.

Results

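The synapse between photoreceptors and the next neurons of the retina was examined through 10 genes, all of which were found on both arrays. The array design gave them 16 probes, matched through the RefSeq accession that names each probe. They were taken from 20666 genes that could be named. They comprise the ribbon and active zone genes Ctbp2, Bsn and Pclo, the calcium regulators Cabp4, Cacna2d4 and Cacnb2, the vesicle fusion genes Stx3, Cplx3 and Cplx4, and Egflam of the synaptic cleft. RNA of whole retina from mice at postnatal day 14 was measured, with 1 array for wild-type (WT) mice and 1 for mice that the labels call Mef2d KO. The MEF2 factors, to which the Mef2d protein belongs, bind DNA and control genes in neurons and muscle. The study compares retinas labelled as wild-type and as Mef2d KO. The labels give neither the kind of deletion nor the sex or number of the animals.

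Photoreceptors signal by releasing glutamate without pause in the dark. Their terminals hold a ribbon, a plate that tethers vesicles above calcium channels, and light slows release by closing these channels. Bipolar cells of the inner retina also form ribbon synapses. Several of these genes are active in both cell classes or in other retinal neurons, so a level in whole retina is a sum over cell types.

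With 1 array per group there is no replicate check and no p-value, and the number of arrays limits the precision. A level is the log2 of the scanner's processed signal relative to the array's 75th percentile. A difference is the level on the Mef2d KO array minus that in WT, and the error after ± is that of the scanner software's error model, which leaves out variation between animals. This error was close to 0.20 for every bright probe, so it is not a spread measured between spots. For probes with more than 1 spot above a level of -3, the median SD of the spot difference was 0.061. In bulk tissue, fewer cells of a type and less RNA per cell cannot be told apart. The 2 Mef2d probes were not lower on the Mef2d KO array, with differences of 0.43 ± 0.20 and 0.14 ± 0.21. No source used here says how these probes relate to the deleted part, so the label is neither borne out nor contradicted by them, and Mef2d KO below is the name the label gives. Xist, the RNA of the inactive X chromosome, was at least 52.6-fold and at least 26.9-fold higher on the Mef2d KO array by its 2 probes, neither well above background in WT. Sex composition and genotype cannot be told apart in these arrays. Of the retinal markers, the 10 rod, 10 cone, 10 bipolar and 10 amacrine genes listed were well above background on both arrays.

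The sequence before the start of a gene is shown for Ctbp2, which names the ribbon, and for Stx3, the gene with the most measurements here. The table of RefSeq sequences (GRCm38.p6) holds 10 windows for 7 of the 10 genes, and 250 bases before each annotated start were searched on both strands. The letters searched were TAATCC, the core recognised by the photoreceptor factor CRX, and the MEF2 consensus. TAATCC occurred in 1 of the 10 windows, a Ctbp2 window, against 6.25% of all 32851 windows of that length. The window of the other annotated Ctbp2 start, not shown, held no match. The Egflam windows nearly coincide, so the 10 windows are not all separate sequences. The MEF2 consensus occurred in 0 of the 10 windows, against 2.92% of all windows. Both sequences below run 5′ to 3′ on the strand of the gene, and the capitals mark the reverse complement of TAATCC, which begins 121 bases before the annotated start.
Ctbp2, chr7:133015248-133015497, minus strand: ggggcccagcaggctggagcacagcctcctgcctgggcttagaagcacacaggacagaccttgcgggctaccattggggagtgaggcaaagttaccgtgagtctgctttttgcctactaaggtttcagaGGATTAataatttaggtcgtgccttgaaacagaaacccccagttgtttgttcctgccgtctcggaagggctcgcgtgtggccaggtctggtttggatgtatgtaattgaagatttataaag
Stx3, chr19:11819404-11819653, minus strand: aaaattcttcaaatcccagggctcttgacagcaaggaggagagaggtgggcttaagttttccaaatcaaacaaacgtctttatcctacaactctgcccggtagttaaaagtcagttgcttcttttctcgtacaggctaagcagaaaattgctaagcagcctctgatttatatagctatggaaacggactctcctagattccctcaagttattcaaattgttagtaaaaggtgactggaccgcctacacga
A match is a description of the letters and not a measured binding site.

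None of the 10 genes was 2-fold apart between the arrays, where 2.36% of the 16194 named genes well above background on both arrays were. By direction, 1.74% of those genes were past 2-fold on the lower side of the Mef2d KO array and 0.618% on the higher side. Every probe of the 10 genes was well above background on both arrays, so none was lost to the filter. Of the 10 genes, 6 had a positive and 4 a negative difference, each gene being represented by its brightest probe. Their median difference was 0.16, against -0.0061 for all genes, and the genes ran from -0.30 for Cacnb2 to 0.33 for Cabp4. All 10 lay between the 5th and the 95th percentile of all genes, which stood at -0.61 and 0.38. Within that span, 6 genes lay above the upper quartile (0.11), 3 below the lower quartile (-0.16), and Pclo lay between them. Of the 16 probes, 5 had a difference larger than the error model's error, and 0 had one larger than 2 such errors. The 5 were the Cabp4 probe, the bright Cacnb2 probe and the 3 probes of the single gene Stx3. The share of all probes past this error was not counted, so the 5 are a description and not a result about these genes.

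**Figure D1:**
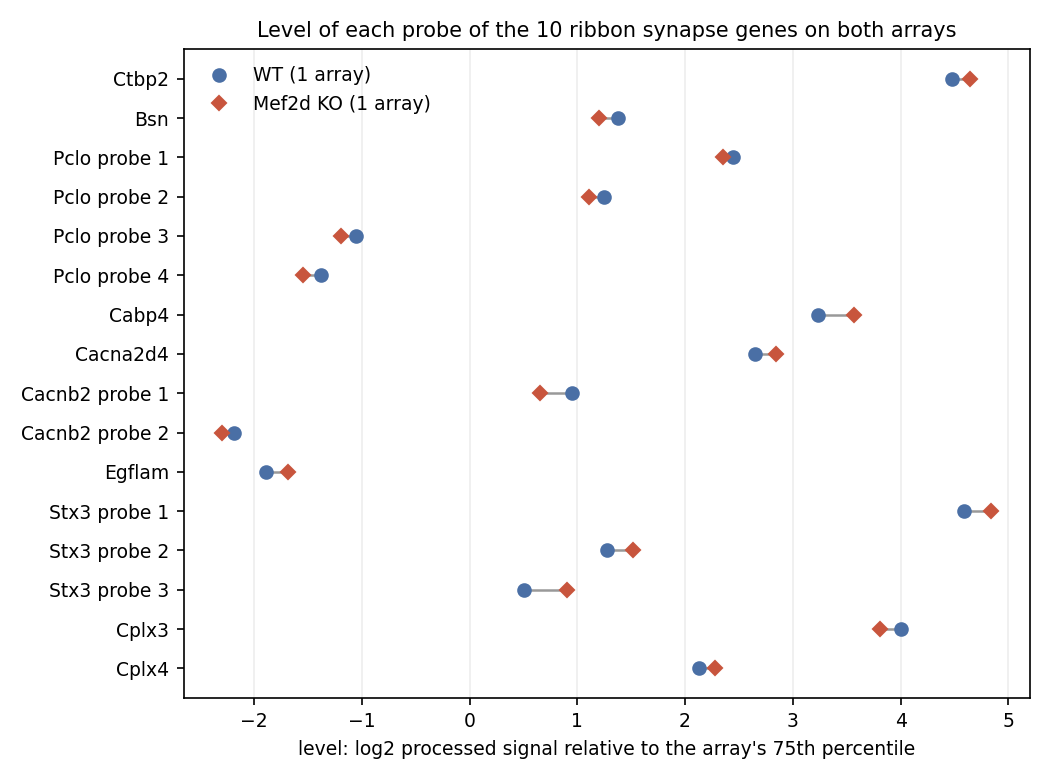
Level of each of the 16 probes (log2 processed signal relative to the array's 75th percentile) on the WT array (blue circles) and the Mef2d KO array (red diamonds), with a grey line between them. Probes of a gene are numbered from the brightest. The widest gap is that of the third Stx3 probe, 0.39, and every probe of Stx3 is higher on the Mef2d KO array while every probe of Pclo is lower.

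**Figure D2:**
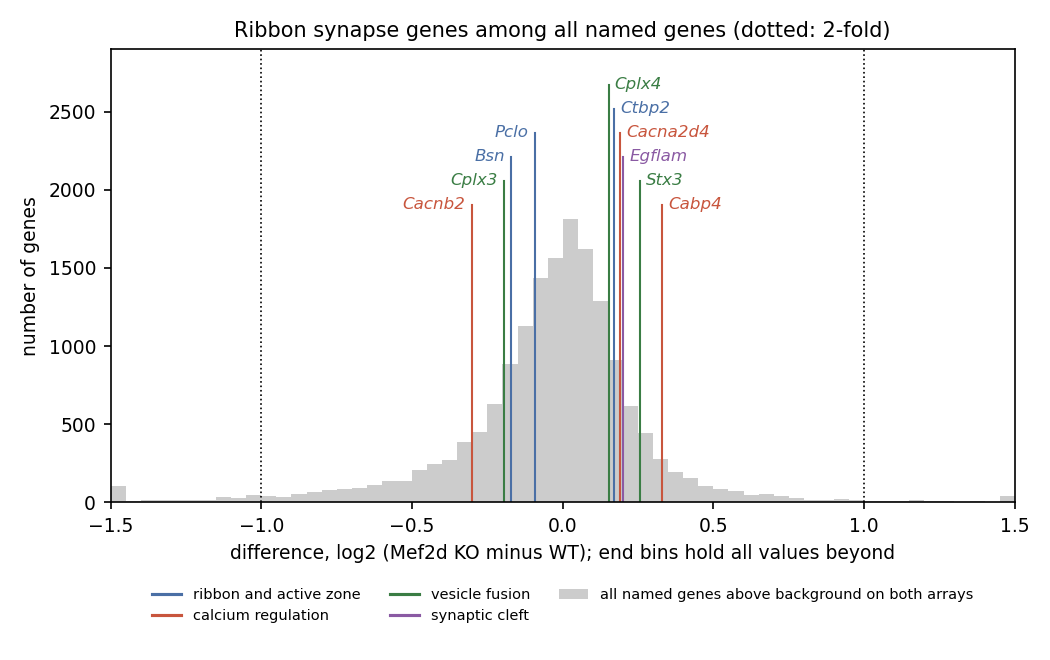
Number of genes (vertical axis) by difference in log2 units (horizontal axis) for the 16194 named genes, in bins of equal width, with a coloured line for the brightest probe of each ribbon synapse gene. The lines stand between -0.30 and 0.33, inside the dotted lines at 2-fold.

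Ctbp2 encodes CtBP2, a corepressor, and from another start RIBEYE, the main protein of the ribbon. Its single probe read a processed signal of 17944 for WT and 21454 for Mef2d KO, with levels of 4.47 and 4.64. The difference of 0.17 ± 0.20 was smaller than the error. The probe is named by an accession of the gene, and the sources used here do not say which of the 2 products it reads.

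Bsn encodes Bassoon, a large scaffold that anchors the ribbon to the presynaptic membrane. The Bsn signal was 2096 in WT and 1978 on the Mef2d KO array, a difference of -0.17 ± 0.20. Under median scaling this was 0.0073, close to 0 and of the other sign. Set against each other within the arrays, which needs no scaling, Ctbp2 stood 0.34 ± 0.29 above Bsn in its difference.

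Pclo encodes Piccolo, a scaffold related to Bassoon, of which ribbon synapses hold a short form. It was read by 4 probes, 2 on each of 2 RefSeq transcripts. On the first transcript the signals were 4409 in WT and 4393 on the Mef2d KO array for the bright probe, and 389.5 and 375.1 for the dim one. On the other transcript they were 1920 in WT and 1853 on the Mef2d KO array, and 310.8 and 292.9. The differences of the Pclo probes, from the brightest to the dimmest, were -0.093, -0.14, -0.14 and -0.17, each with an error of 0.20 or 0.21. The 4 probes spanned 0.080, less than the median span of 0.24 over the 88 genes with 4 such probes. Their sign rested on the scaling: under median scaling all 4 were positive, between 0.0055 and 0.086. The median of all genes then moved to 0.17, and the Pclo probes stayed below it. Within the arrays, Ctbp2 stood 0.26 ± 0.29 above the brightest Pclo probe in its difference, less than the error.

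Of the calcium regulators, Cabp4 had the highest difference of the 10 genes by their brightest probes. It encodes a calmodulin-like protein that sets the voltage at which the photoreceptor calcium channel opens. The Cabp4 signal was 7617 in WT and 10180 on the Mef2d KO array, levels of 3.24 and 3.57. The difference was 0.33 ± 0.20, a 1.26-fold higher value, above that of 93.8% of all genes. Across the alternatives of scaling and background it ran from 0.31 to 0.51.

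Cacna2d4 encodes the alpha2delta subunit that photoreceptor calcium channels use. Its signal was 5067 in WT and 6148 on the Mef2d KO array, a difference of 0.19 ± 0.20. Cacnb2 encodes the beta subunit that brings the channel to the terminal. The bright Cacnb2 probe read 1566 in WT and 1349 on the Mef2d KO array, a difference of -0.30 ± 0.20, the lowest of the 16 probes. The dim Cacnb2 probe, on the same transcript, read 177.1 and 174.7, a difference of -0.11 ± 0.21. These 2 probes differed by 0.20, against a median of 0.12 over 3599 genes with 2 probes. With cyclic loess the dim probe was at -0.0026, and with median scaling it was at 0.071 while the bright one stayed negative at -0.12. Within the arrays, Cabp4 stood 0.63 ± 0.29 and Cacna2d4 0.49 ± 0.29 above the bright Cacnb2 probe. Cabp4 and Cacnb2 are the highest and lowest of the 10 genes, so the first gap is the whole range of the genes and tests nothing. Both gaps are smaller with the dim Cacnb2 probe, at -0.11. Cacna1f, which encodes the pore of that channel, had a difference of 0.031 ± 0.20.

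Stx3 encodes syntaxin 3, the SNARE protein that ribbon synapses use in place of syntaxin 1. Its brightest probe, on 1 RefSeq transcript, read 19377 in WT and 24613 on the Mef2d KO array, a difference of 0.26 ± 0.20. Another transcript was read by 2 probes. The dimmer of them gave 1148 and 1603, a difference of 0.39 ± 0.20, the highest among the 16 probes. The other was printed in 10 spots on each array. In WT these spots ran from 1898 to 2083 with a median of 1931, and on the Mef2d KO array from 2271 to 2648 with a median of 2445.

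Scaled to each array, the 10 Stx3 spots averaged 1.28 ± 0.045 for WT and 1.51 ± 0.064 for Mef2d KO (mean level ± SD of spots). The highest WT spot, at 1.37, was below the lowest Mef2d KO spot, at 1.40, so the arrays did not overlap. Each of the 10 spots was higher on the Mef2d KO array than the same spot in WT, by 0.17 to 0.31, and the mean difference was 0.23 with an SD of 0.056. Spots of 1 array share the RNA and are not replicates of the genotype. Such a gap is common on these arrays: of 314 probes with 8 or more spots, 27.7% did not overlap, and 16.2% had all Mef2d KO spots above the WT spots. The 3 Stx3 probes spanned 0.16, against a median span of 0.20 over 636 genes with 3 probes, and all 3 stayed positive under each scaling and background tried, from 0.22 to 0.57.

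**Figure D3:**
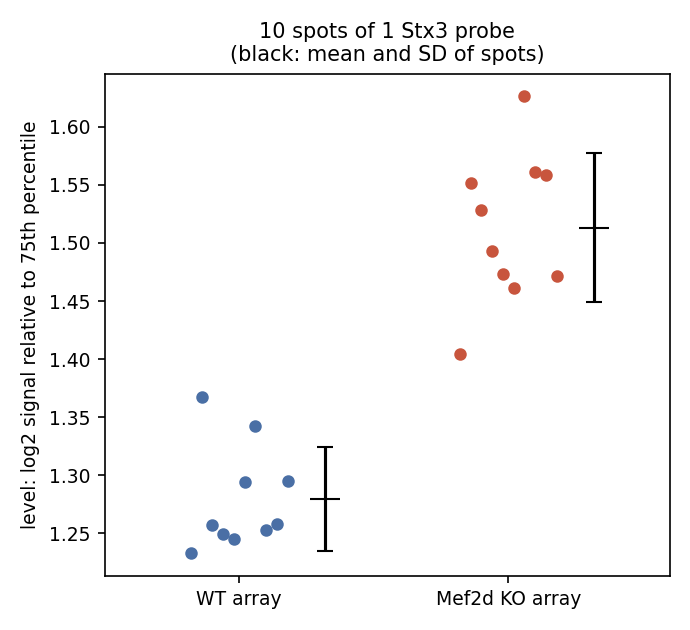
Level of the 10 spots of 1 Stx3 probe (log2 signal relative to the array's 75th percentile) on the WT array (blue) and the Mef2d KO array (red), with black bars for the mean and SD of the spots. The WT spots end at 1.37 and the Mef2d KO spots begin at 1.40.

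Complexins bind the assembled SNARE complex and regulate its fusion. Cplx3 and Cplx4 are the members with a lipid anchor found at retinal ribbon synapses. Cplx3 gave 12932 in WT and 11992 on the Mef2d KO array, a difference of -0.20 ± 0.20. Cplx4 gave 3532 and 4171, a difference of 0.15 ± 0.20. These related genes had differences of opposite sign, 0.35 ± 0.29 apart within the arrays, a gap under 2 errors. With median scaling Cplx3 stood at -0.018 and Cplx4 at 0.33. The complexins of conventional synapses, Cplx1 and Cplx2, had differences of -0.0078 and 0.037 by their brightest probes, each ± 0.20. The 4 Cplx2 probes ran from 0.033 to 0.29.

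Markers of cell types in which complexin 3 is known were read beside Cplx3. Of the 10 bipolar markers, 10 had a negative difference, with a median of -0.19, and 5 did with median scaling (median -0.011). Their summed scaled signal on the Mef2d KO array was 0.85 of that in WT. For the 10 cone markers the ratio was 0.78, with 8 negative differences and a median of -0.30, or 6 and -0.12 with median scaling. The cone markers were uneven: 2 were past 2-fold lower, Arr3 (-5.36) and Pde6h (-2.42). The other 8 stayed within 2-fold, from Kcne2 (-0.99) to Cnga3 (0.29), so the ratio does not describe all cone markers. For the 10 amacrine markers the ratio was 0.98, with 6 negative differences and a median of -0.095, or 2 and 0.083 with median scaling. Of all named genes 51.3% had a negative difference, with a median of -0.0061. With median scaling 22.6% of all named genes did, with a median of 0.17. Whether cell composition took part in the Cplx3 value was not tested.

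Egflam encodes pikachurin, a protein of the synaptic cleft that binds dystroglycan and joins the photoreceptor terminal to the bipolar dendrite. The Egflam signal was 218.0 in WT and 266.3 on the Mef2d KO array, levels of -1.89 and -1.69. The difference was 0.20 ± 0.21, and it ran from 0.18 to 0.38 across the scalings and background corrections. Rod markers, which come from the cells that make most of these synapses, had a summed scaled signal of 0.87 on the Mef2d KO array relative to WT. Of the 10 rod markers 7 had a negative difference, with a median of -0.051. With median scaling 4 of them did, with a median of 0.13 against 0.17 for all named genes. Lens markers, from the tissue next to the retina in the eye, differed most among the marker lists, with 6 of 7 measured genes at least 2-fold lower and a summed ratio of 0.22. Not all lists were lower. Pigment epithelium and microglia markers had medians of 0.28 and 0.29 and summed ratios of 1.14 and 1.22. The other marker lists had negative medians with 75th percentile scaling. The part of these markers in the values of the synapse genes was not tested.

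**Figure D4:**
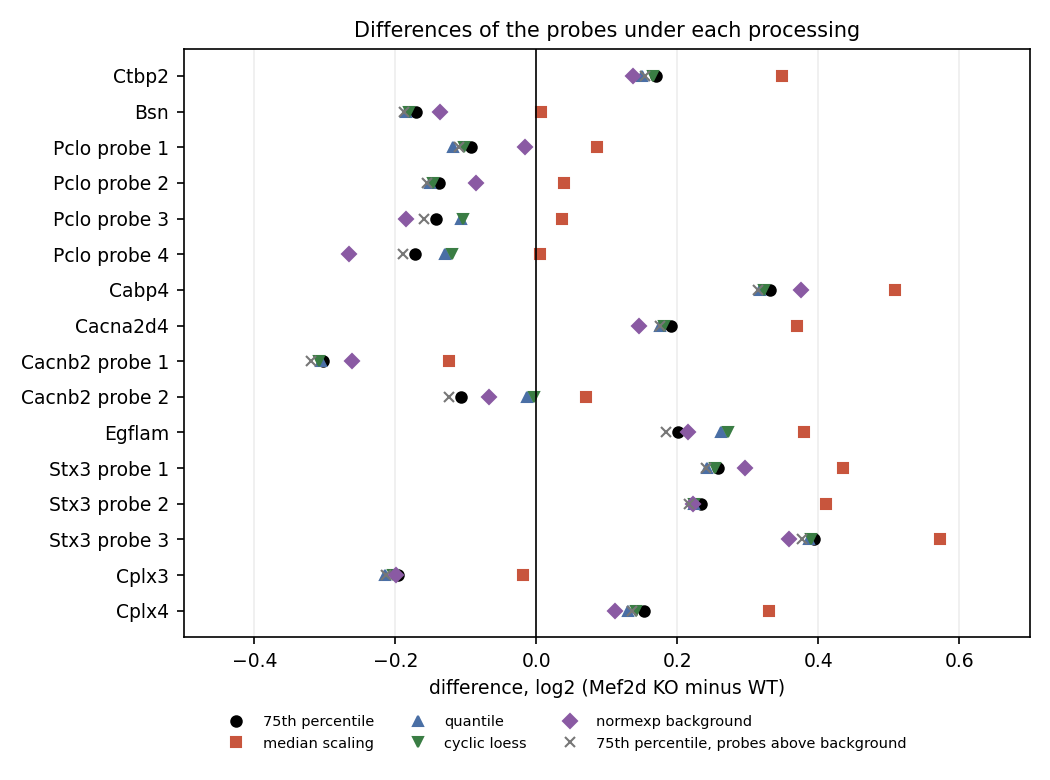
Difference of each of the 16 probes in log2 units (Mef2d KO minus WT, horizontal axis) under 6 ways of processing, each a symbol. Median scaling (red squares) moves every probe up by 0.18 and turns 6 of the 8 negative ones positive, while under the other ways the probes keep their sign.

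Other genes of the synapse were taken from 4 lists holding 77 genes, of which 75 were on the arrays and 73 well above background on both. Of the 73, 1 was past 2-fold on the lower side and 0 on the higher. Their median difference was -0.063, with 52 negative differences (71.2%), against 51.3% of all genes. With median scaling that median was 0.12 and 15 differences (20.5%) were negative, against a median of 0.17 and 22.6% for all genes. The 10 ribbon synapse genes had 4 negative differences, or 2 with median scaling.

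Active zone genes, which organise vesicles at the release site, all stayed within 2-fold. Their median was -0.057 over 18 genes. Slc17a7, the transporter that loads glutamate into vesicles, was the lowest at -0.48 ± 0.20, with a signal of 6603 in WT and 5046 on the Mef2d KO array. The dim priming factor gene Unc13a stood at -0.26 ± 0.21, and at -0.14 with cyclic loess. The highest were Rims3 (0.27 ± 0.24) and Rims1 (0.19 ± 0.20), both of the RIM family of active zone proteins. Rims3 was dim and stood at 0.58 with cyclic loess, and another Rims1 probe gave -0.13.

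Calcium channel subunits and calcium binding proteins had a median of -0.091 over 14 genes, and none was 2-fold apart. Cacna2d3, another alpha2delta subunit, differed by -0.74 ± 0.20 (signals of 7645 in WT and 4857 on the Mef2d KO array), opposite in sign to Cacna2d4. Calb1, the calcium buffer calbindin, differed by -0.45 ± 0.21. It was dim, and stood at -0.33 with quantile normalization and -0.30 with cyclic loess. Cabp2, a relative of Cabp4, had the highest value of the 4 lists, 0.66 ± 0.20, from 1468 in WT and 2463 on the Mef2d KO array. Cacna2d2 was next at 0.091 ± 0.20, and its other probe gave -0.17. Cabp7 was not well above background on either array.

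Vesicle fusion genes had a median of -0.036 over 23 genes, all within 2-fold. The vesicle protein gene Sv2b differed by -0.32 ± 0.20. The vesicle membrane protein gene Syp (0.21 ± 0.20) and the calcium sensor gene Doc2b (0.34 ± 0.20) were the highest.

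The dystroglycan and adhesion list held the single gene past 2-fold, Lrfn2, a synaptic adhesion protein, at -1.59 ± 0.20. Its signal was 1878 in WT and 664.4 on the Mef2d KO array. The median over 18 genes was -0.053. Dag1, which encodes the dystroglycan that pikachurin binds, differed by -0.038 ± 0.20 and Dmd, its intracellular partner dystrophin, by -0.12 ± 0.20. The 3 Dmd probes ran from -0.30 to -0.014. Pomgnt1, an enzyme that adds sugars to dystroglycan, stood at -0.36 ± 0.20, and Pomt2, another one, at 0.26 ± 0.20. The other Pomgnt1 probe gave -0.46. Lrit1, an adhesion protein of photoreceptors, stood at 0.27 ± 0.20. Elfn1, an adhesion protein of rod terminals, was well above background in WT only, at a dim level of -5.55. Its bound on the Mef2d KO array was 1.25-fold lower and carries no error. Below a level of -3 the median SD of the spot difference was 0.38, so no decrease is read from this bound.

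**Figure D5:**
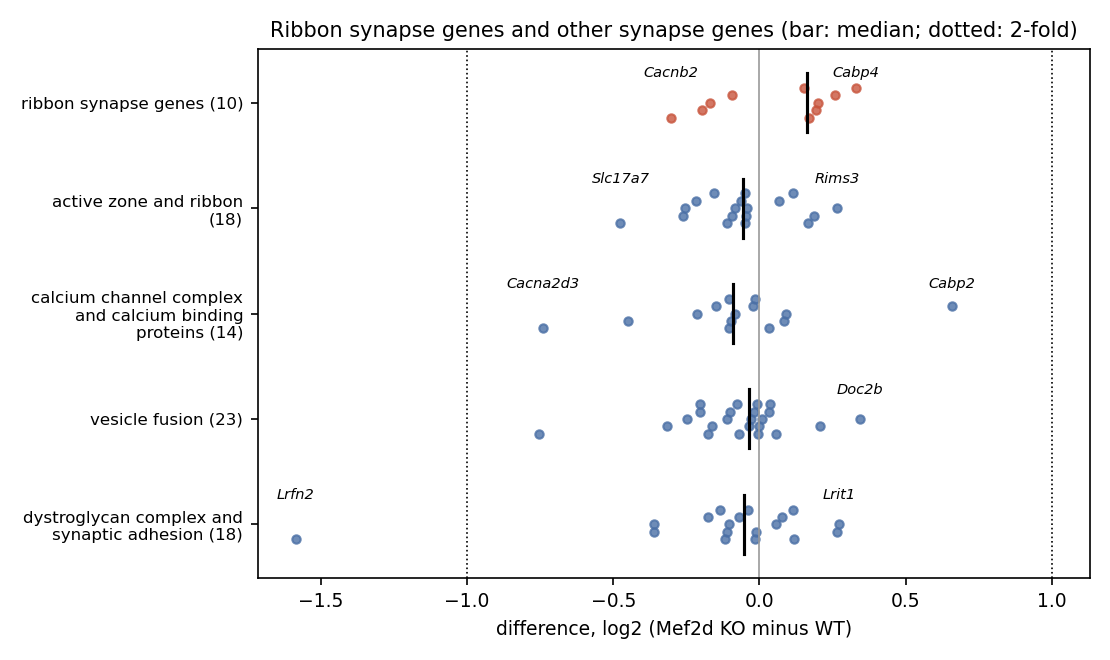
Difference in log2 units (Mef2d KO minus WT, horizontal axis) of each ribbon synapse gene (red) and of the other synapse genes in 4 lists (blue), with a black bar at each median and some of the lowest and highest genes named. The 10 ribbon synapse genes have a median of 0.16 and the 4 lists medians between -0.091 and -0.036, and Lrfn2 alone lies beyond the dotted line at 2-fold.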

How the data were processed

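Total RNA of retina was amplified and Cy3-labelled for 1 Agilent array per group, per the labels' protocols. Per the file headers, the authors extracted an intensity for every spot with Agilent Feature Extraction 10.10.1.1, after background subtraction and spatial detrending. The array design names the build mm9. Both arrays shared 1 slide and 1 scan. The deposited series table holds the same intensity values times 1 constant per array (1.88 for WT, 1.76 for the other array). Its scale is linear, with no centring, and its column medians were 155.1 and 136.6. The origin of the constants is unknown here.

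The log2 processed signal was scaled to each array's 75th percentile over 59305 probe spots (807 and 858). On the WT array 75.5% of spots were well above background, against 69.6%, and 0 were saturated. Control and outlier spots were left out and spots of a probe averaged, which left 55669 probes. Of these, 27244 (48.9%) were named by RefSeq accession or gene name in the GRCm38.p6 annotation, which was used for names. A probe was well above background if at least 50% of its spots were. A gene was represented by its brightest such probe.

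All probes of the 10 genes are reported. From the other synapse lists, the 2 lowest and 2 highest genes and any past 2-fold were named, except that 1 gene is not reported here. Cacna1f, Cplx1, Cplx2, Dag1, Dmd and Elfn1 were added after their values were seen, for their roles, and so was Cabp7. Members and lists were chosen with earlier results of these data known. Over 432 probes with more than 1 spot, the median SD of the spot difference was 0.061 above a level of -3 and 0.38 below it. The calls were tested on simulated data, which with 1 array per group cannot measure variation between animals. Normalization used limma 3.58.1 in R 4.3.3. Tables were made with pandas 2.3.3 and numpy 2.4.6 under Python 3.11.15, and plots with matplotlib 3.10.9.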

Additional observations from a re-analysis of the deposited data

How the results depend on the processing

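The alternatives were 4 other ways of scaling, the series table, normexp background (offset 50), a gene's mean over its probes, and 2 other filters on dim probes. The count of ribbon synapse genes past 2-fold was 0 under each of the 9, and their median difference ran from 0.12 (normexp) to 0.34 (median scaling). The count of all named genes past 2-fold, 382, was 164 with normexp background, 194 above a mean level of -3 and 1965 with no filter. With no filter 2 other synapse genes passed 2-fold, Lrfn2 and the dim Cabp7 (1.52 ± 1.24). Of the 382 genes 73.8% were lower. Each other setting gave its own set of genes past 2-fold. The share lower was 62.8% of 164 genes under normexp and 53.1% of 322 under median scaling. It was 50.8% of 321 under quantile and 50.2% of 319 under cyclic loess normalization. For the dim Rims3 the difference was 0.52 with quantile normalization. The medians of the other synapse genes are positive with median scaling only. No paired analysis was possible because each group had 1 array, and no array could be left out.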
